A study of Mus musculus with 7 samples.

Results

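A set of 10 genes that mark the epithelium of the choroid plexus was followed through 7 RNA-seq libraries of hippocampal synaptoneurosomes. The mice were wild-type females of the C57Bl/6J strain. Synaptoneurosomes are resealed nerve endings with attached postsynaptic pieces, enriched from homogenised brain tissue. The 10 genes, Ttr, Folr1, Kl, Clic6, Kcne2, Aqp1, Otx2, Enpp2, Slc4a5 and Prlr, were taken by symbol from the 22248 genes of the table, and 10 of 10 were present and passed the low-count filter. The 4 AM6545 libraries, replicates B, D, E and F, came from mice given that compound sub-chronically, and the 3 vehicle libraries, replicates B, D and E, from mice given vehicle. The compound blocks the cannabinoid receptor CB1 and enters the brain poorly. The labels state neither their age, the dose, the number of days, nor how many mice made up a library, so that p-values measure the spread between these libraries only. The title of the series asks about cognition and hippocampal synaptic plasticity, and the question here is how far choroid plexus mRNA differs between libraries and between treatments.

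The choroid plexus is a fringe of vascular tissue covered by a cuboidal epithelium that hangs into the brain ventricles, where it borders the hippocampus in the lateral ventricle. Its epithelium secretes cerebrospinal fluid by moving ions and water, forms the barrier between blood and that fluid, and exports carrier proteins, vitamins and hormones into it. Its cells make no synapses, and Ttr, the most abundant mRNA of that epithelium, is commonly read as a sign of choroid plexus tissue in a dissection. Enpp2 is less specific, being used by oligodendrocytes and meninges too, and Kl is also made at lower levels by neurons.

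Library totals ranged from 19174649 to 25894733 estimated counts. CPM are counts scaled to one common library size, with TMM factors between libraries. Mitochondrially encoded genes took 5.07% to 6.66% of counts in 6 libraries and 9.83% in vehicle replicate B. The trend of gene levels with GC content separated the groups, with slopes of -0.110 to -0.025 (log2 per 10 percentage points of GC) in AM6545 and 0.043 to 0.125 in vehicle libraries. The 8 genes listed for hippocampal excitatory neurons summed to 7726 to 8293 CPM in AM6545 and 7691 to 8315 CPM in vehicle libraries. The range was 1.08-fold. Snap25, which is not specific to excitatory neurons, had the highest mean of the 8, 3501 CPM. Within that sum the genes differed in direction. By edgeR 0 of the 8 passed and 2 had an unadjusted p under 0.05, Nrgn (-0.37, SE 0.14) and Wfs1 (-0.27, SE 0.12). Snap25 (0.21, SE 0.10) was higher in AM6545 with no overlap between groups (edgeR adjusted p of the 3 genes 0.276 to 0.365). Over all genes tested, 14.6% had an unadjusted p under 0.05 and 13.8% had groups that did not overlap. In bulk RNA, fewer choroid plexus cells and less RNA per cell cannot be told apart.

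Promoter sequences of 2 genes, Kcne2 and Otx2, are shown. Transcripts of Kcne2 from 2 start sites were counted in different proportions. Otx2 is the homeodomain transcription factor of this epithelium and recognises the letters TAATCC. Each sequence is the 250 bases before a RefSeq start site (GRCm38.p6), in lower case. Matches to TAATCC or to its core GATTA, on either strand, are in capitals (every TAATCC match holds a GATTA match). RefSeq windows were at hand for 6 of the 10 genes, 12 windows in all.
Kcne2, start of Kcne2-201, chr16:92292139-92292388, plus strand: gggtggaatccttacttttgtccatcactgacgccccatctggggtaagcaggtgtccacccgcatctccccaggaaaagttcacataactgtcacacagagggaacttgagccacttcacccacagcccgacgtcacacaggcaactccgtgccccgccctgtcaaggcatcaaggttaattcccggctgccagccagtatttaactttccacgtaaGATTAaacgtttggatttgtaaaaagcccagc
Kcne2, start of Kcne2-202, chr16:92295366-92295615, plus strand: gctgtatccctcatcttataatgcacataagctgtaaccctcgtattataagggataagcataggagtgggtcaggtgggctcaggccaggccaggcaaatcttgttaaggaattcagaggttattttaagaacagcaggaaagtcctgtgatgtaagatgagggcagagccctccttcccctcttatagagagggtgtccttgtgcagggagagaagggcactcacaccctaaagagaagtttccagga
Otx2, 3 bases from the start of Otx2-201, chr14:48665110-48665359, minus strand: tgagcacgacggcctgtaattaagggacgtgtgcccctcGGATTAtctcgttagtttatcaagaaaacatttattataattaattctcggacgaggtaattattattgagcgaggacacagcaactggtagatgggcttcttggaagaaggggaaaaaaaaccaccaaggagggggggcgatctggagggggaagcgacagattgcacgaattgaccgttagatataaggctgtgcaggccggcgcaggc
TAATCC was found in 1 of the 12 windows, that of Otx2 above, and in 6.25% of all 32851 RefSeq windows of this length. GATTA was found in 2 of the 12, in Otx2 and at the start of Kcne2-201, beginning 32 bases before that start, and in 19.8% of all windows. The window at the start of Kcne2-202 held neither, nor did the other Otx2 windows, which are not shown. A match describes letters only.

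Levels between genes were compared per transcript length, as TPM (counts per kilobase of annotated transcript, scaled to a common total). Ttr, the carrier of thyroid hormone and retinol-binding protein in cerebrospinal fluid, had the highest level, 2364 ± 1114 TPM (SD, n = 7). Enpp2, the secreted enzyme autotaxin that makes lysophosphatidic acid, followed at 1154 ± 535 TPM (SD, n = 7), below Ttr in 7 of 7 libraries. Folr1, the folate receptor that carries folate across the epithelium, came next at 55.9 ± 25.7 TPM (SD, n = 7). The next genes were close together: Kl at 18.2 ± 7.34, Clic6 at 17.1 ± 8.25, Kcne2 at 15.5 ± 7.72 and Prlr at 15.5 ± 6.45 TPM (SD, n = 7 each). Neighbours among these 4 did not differ beyond their spread, each being higher in only 4 of 7 libraries. Otx2 at 9.37 ± 4.15 TPM (SD, n = 7) was below Prlr in 7 of 7 libraries, and Aqp1 at 6.14 ± 2.58 TPM (SD, n = 7) below Otx2 in 6 of 7, both by less than the spread over libraries. Slc4a5 had the lowest level, 2.37 ± 1.24 TPM (SD, n = 7), below Aqp1 in 7 of 7 libraries by more than that spread. Ttr and Enpp2 together made up 94.4% to 95.3% of the summed CPM of the 10 genes.

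The 10 genes differed between libraries of the same group far more than most genes did. Their summed level was 3399, 2733, 5187 and 1062 CPM in AM6545 replicates B, D, E and F, and 3289, 5093 and 3607 CPM in vehicle replicates B, D and E. The highest sum was 4.88 times the lowest, and both extremes, replicates E and F, were AM6545 libraries. AM6545 replicate F was the lowest library for 10 of 10 genes, against 10.6% of all 14654 genes tested. The highest library was AM6545 replicate E for 5 of them and vehicle replicate D for the other 5, and either of these for 25% of all genes tested. Within groups, the SD of log2(CPM + 1) was 0.65 to 0.87 for the 10 genes (median 0.73), against a median of 0.16 and a 95th percentile of 0.33 over all genes tested.

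**Figure D1:**
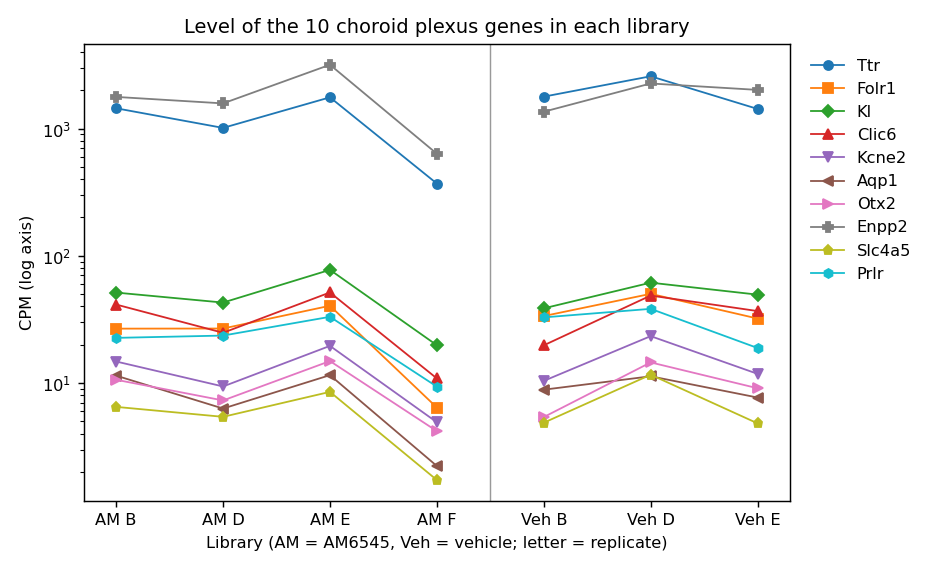
CPM (log axis) of the 10 choroid plexus genes in the 4 AM6545 and 3 vehicle libraries; each point is 1 library, and lines join the points of a gene within a group for reading only, since replicates have no order. AM6545 replicate F is the lowest point of each of the 10 genes, and AM6545 replicate E or vehicle replicate D the highest.

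Among the exported and carrier proteins, Ttr (ENSMUSG00000061808) was at 1442, 1011, 1759 and 369 CPM in AM6545 replicates B, D, E and F, and at 1780, 2574 and 1425 CPM in vehicle replicates B, D and E. The AM6545 libraries reached from far below the vehicle libraries into their range. Its log2 fold change, AM6545 over vehicle, was -0.75 (SE 0.48), the largest of the 10, and did not pass (edgeR, adjusted p 0.491). Folr1 (ENSMUSG00000001827) was at 26.7, 26.8, 40.5 and 6.41 CPM in AM6545 and at 33.6, 50.2 and 32.1 CPM in vehicle, in the same order of replicates. Here 3 of 4 AM6545 libraries lay below the 3 vehicle libraries and replicate E between them. Its log2 fold change was -0.63 (SE 0.52, edgeR adjusted p 0.589). Enpp2 (ENSMUSG00000022425), at 1772, 1576, 3171 and 634 CPM in AM6545 and 1355, 2259 and 2011 CPM in vehicle, had both its highest and its lowest value in AM6545 libraries. Its log2 fold change was -0.07 (SE 0.47, edgeR adjusted p 0.957).

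Of the genes for ion and water transport, Clic6 (ENSMUSG00000022949), a chloride intracellular channel protein, was at 41.4, 24.8, 51.5 and 10.9 CPM in AM6545 and 19.8, 48.7 and 36.7 CPM in vehicle. Kcne2 (ENSMUSG00000039672), a subunit that modifies potassium channels such as Kcnq1, was at 14.8, 9.39, 19.6 and 4.91 CPM in AM6545 and 10.4, 23.3 and 11.8 CPM in vehicle. Aqp1 (ENSMUSG00000004655), the water channel of the apical membrane, was at 11.4, 6.30, 11.5 and 2.23 CPM in AM6545 and 8.86, 11.3 and 7.68 CPM in vehicle. For these 3 genes the groups overlapped widely, and without AM6545 replicate F the remaining libraries of both groups still overlapped. Slc4a5 (ENSMUSG00000068323), a sodium bicarbonate cotransporter, was at 6.49, 5.42, 8.51 and 1.73 CPM in AM6545 and 4.87, 11.6 and 4.82 CPM in vehicle, where replicate D stood above the other vehicle libraries. The log2 fold changes were -0.13 (SE 0.53) for Clic6, -0.33 (SE 0.47) for Kcne2, -0.25 (SE 0.48) for Aqp1 and -0.38 (SE 0.51) for Slc4a5, with edgeR adjusted p-values of 0.754 to 0.923.

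Among the receptors and the transcription factor, Kl (ENSMUSG00000058488), the co-receptor for FGF23 that is also shed into cerebrospinal fluid, was at 51.3, 42.9, 77.5 and 19.8 CPM in AM6545 and 38.6, 61.4 and 49.5 CPM in vehicle. Prlr (ENSMUSG00000005268), the prolactin receptor, was at 22.6, 23.6, 33.1 and 9.36 CPM in AM6545 and 32.8, 38.3 and 18.8 CPM in vehicle. Otx2 (ENSMUSG00000021848) was at 10.6, 7.29, 14.9 and 4.18 CPM in AM6545 and 5.39, 14.5 and 9.09 CPM in vehicle. In each of the 3 the groups overlapped, and vehicle replicate B, high for Prlr, was the lowest vehicle library for Kl and Otx2. The log2 fold changes were -0.06 (SE 0.40) for Kl, -0.44 (SE 0.40) for Prlr and -0.08 (SE 0.46) for Otx2 (edgeR, adjusted p 0.954, 0.619 and 0.949).

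Thus 0 of the 10 genes passed an adjusted p under 0.05 in edgeR's quasi-likelihood test, where 0.00682% of all 14654 genes did, and 0 had an unadjusted p under 0.05, where 14.6% did. DESeq2 also called 0 of the 10, against 1.62% of the 12665 genes counted as tested there (0 unadjusted, against 16.4%). The 16.4% is 2079 genes divided by that same 12665, but the 2079 may include genes outside those 12665. It is therefore only a rough background for the unadjusted count, and neither DESeq2 percentage is a share of all 14654 genes. With limma-voom 0 of the 10 also passed, against 2.69% of all genes (0 unadjusted, against 23.9%). The groups overlapped for 10 of 10, while they did not for 13.8% of all genes (7.19% with AM6545 lower). All 10 fold changes were below 0 (48.6% of all genes), with a median of -0.29 against 0.01 over all genes, but since the 10 genes vary together these are not 10 separate observations. The median depended on single libraries: it was -0.00 without AM6545 replicate F, when 5 of the 10 genes had a fold change above 0 and Ttr was at -0.46, Folr1 at -0.31 and Prlr at -0.19, and 0.10 without vehicle replicate D, when 6 had. Without AM6545 replicate E it was -0.58, and Ttr (-1.03, SE 0.40) and Folr1 (-0.95, SE 0.41) then had unadjusted edgeR p-values of 0.0263 and 0.0437 (adjusted 0.431 and 0.433; 0% of genes passed), where 11.5% of genes had an unadjusted p under 0.05. With limma-voom and library quality weights it was -0.84. The 10 genes had a GC content of 42.1% to 54.9% (median of all genes tested 50.4%), and once the GC and length trends were removed from each library their fold changes were -0.69 to -0.11. Folr1 moved from -0.63 to -0.40 by that correction, Enpp2 from -0.07 to -0.25, Kl from -0.06 to -0.11 and Otx2 from -0.08 to -0.14. With the replicate letter as a block beside it, Folr1 was at -0.06.

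**Figure D2:**
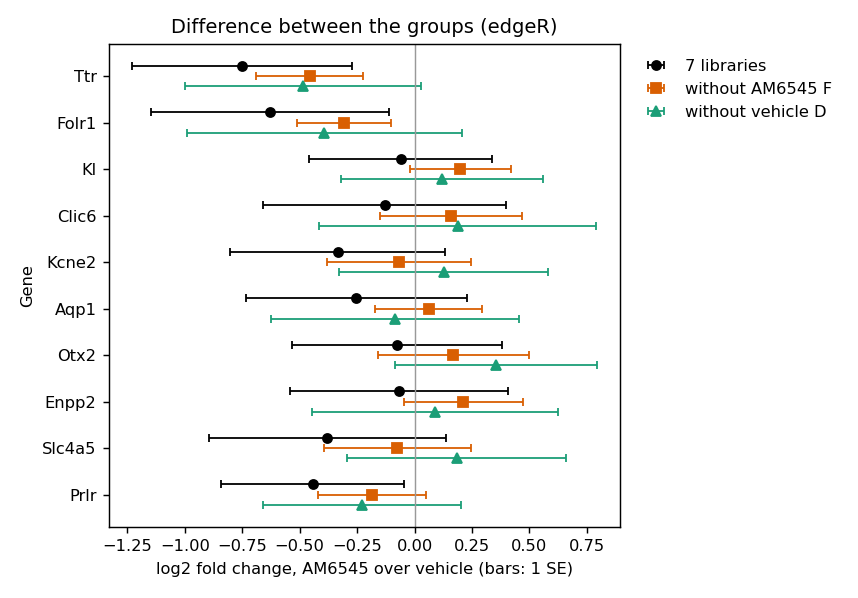
log2 fold change of each choroid plexus gene, AM6545 over vehicle, by edgeR with 1 SE on each side, for the 7 libraries, without AM6545 replicate F and without vehicle replicate D. With 7 libraries the 10 values lie between -0.75 and -0.06; 5 of them lie above 0 without AM6545 replicate F and 6 without vehicle replicate D.

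Over the 7 libraries the genes varied together. Pearson's r of log2(CPM + 1) between 2 of the genes was above 0 for 45 of 45 pairs, from 0.67 (Otx2 with Prlr) to 0.99 (Kl with Enpp2), with a median of 0.91. By the exact permutation test over 5040 pairings of libraries, 43 of the 45 had an adjusted p under 0.05, the other two being Otx2 with Prlr (adjusted p 0.0885) and Clic6 with Prlr (0.0659). Spearman's rho ranged from 0.54 to 1 with a median of 0.79, and 22 of 45 pairs passed. The pairs share their libraries and so are not independent. With the 2 libraries farthest from the median of the first gene left out, r was still above 0 for 45 of 45 pairs, but from 0.01 to 0.99 with a median of 0.67, so that the strength of many pairs rests on those libraries. Leaving out AM6545 replicate F alone gave a median of 0.72.

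The pairs with Ttr show this range. With Folr1, Ttr had r of 0.98 (exact permutation p 0.00159, adjusted 0.00714) and rho of 0.86 (exact p 0.0238, adjusted 0.0487), and r of 0.76 without AM6545 replicate F and vehicle replicate D. With Enpp2, Ttr had r of 0.85 (exact permutation p 0.0317, adjusted 0.0357) and rho of 0.54 (exact p 0.236, adjusted 0.236), and r of 0.33 without those libraries, a relation that rests on them. Kl and Enpp2 had r of 0.99 (exact permutation p 0.000397, adjusted 0.00357), rho of 0.96 (exact p 0.00278, adjusted 0.0208), and r of 0.95 without AM6545 replicates E and F. Kcne2 and Slc4a5 had r of 0.97 (exact permutation p 0.00119, adjusted 0.00595), rho of 0.86 (exact p 0.0238, adjusted 0.0487) and r of 0.90 without AM6545 replicate F and vehicle replicate D. These 4 pairs were picked after their values were seen, and the lowest r over all pairs was that of Otx2 with Prlr given above.

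**Figure D3:**
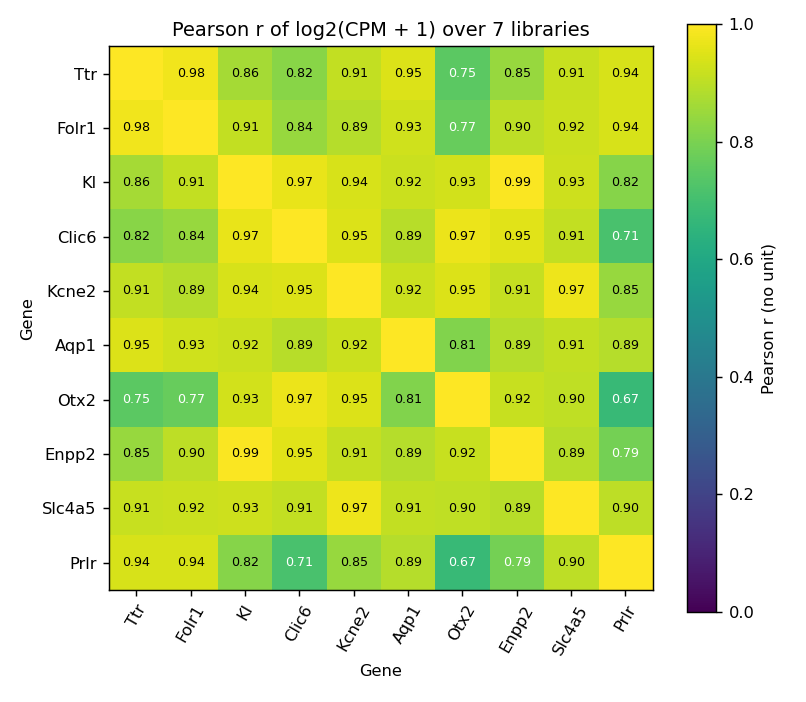
Pearson r of log2(CPM + 1) over 7 libraries for each pair of the 10 genes, which stand on both axes; colour and number give r. The lowest value is 0.67 (Otx2 with Prlr) and the highest 0.99 (Kl with Enpp2).

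The genes did not keep one fixed proportion. Each gene's log2 deviation from its own mean, minus that of the other 9 genes, gives its level relative to the rest, described here with no test. Ttr was at -0.05, -0.22, -0.22 and -0.49 in AM6545 replicates B, D, E and F, and at 0.58, 0.31 and 0.09 in vehicle replicates B, D and E. Folr1 was at -0.245, 0.166, -0.081 and -0.618 in AM6545 and at 0.408, 0.174 and 0.197 in vehicle. For Ttr the vehicle libraries lay above the AM6545 libraries, for Folr1 the groups all but touched (0.166 and 0.174), and for the other 8 they overlapped. This measure has no counterpart over all genes, so nothing is read from how many genes separate the groups. Vehicle replicate B had the highest relative levels of Ttr, Folr1 and Prlr (0.59) and the lowest of Clic6 (-0.56) and Otx2 (-0.59). It is the library with the 9.83% mitochondrially encoded share and the highest GC slope, and the part of these in the proportions was not tested. The ratio of Ttr to Enpp2 in CPM was 0.55 to 0.81 in AM6545 and 0.71, 1.14 and 1.31 in vehicle libraries, with overlap.

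**Figure D4:**
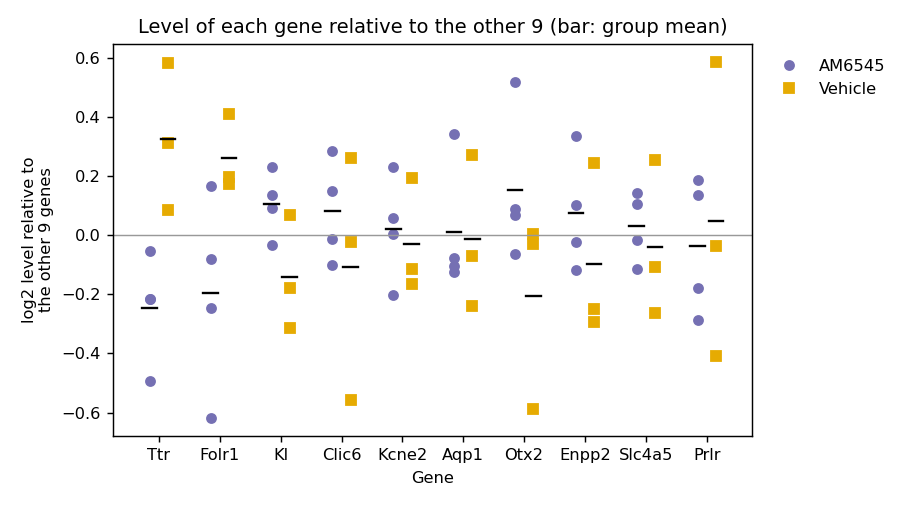
Level of each of the 10 genes relative to the other 9 (log2, vertical axis) in AM6545 (circles) and vehicle (squares) libraries; each point is 1 library and each bar a group mean. For Ttr the vehicle points lie above the AM6545 points, for Folr1 the groups all but touch, and for the other 8 genes they overlap.

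A further list of 25 genes of choroid plexus epithelium varied with them. The 7 libraries, ordered by the mean log2(CPM + 1) of this list, stood in the same order as by that of the 10 genes, from AM6545 replicate F over AM6545 D, vehicle B, vehicle E, AM6545 B and AM6545 E to vehicle D. By summed CPM the orders were not the same. Both sums were lowest in AM6545 replicate F, but the 10 genes were highest in AM6545 replicate E and this list in vehicle replicate D. AM6545 replicate F was the lowest library for 21 of 25. Their r with Ttr had a median of 0.90 (from 0.35 to 0.995), against a median of -0.02 over all genes. Of the 25, 0 passed in either direction by edgeR (0 unadjusted, against 14.6% of all genes). A fold change below 0 was found for 22 (48.6% of all genes), and the median log2 fold change was -0.26. The most abundant in CPM were Kcnj13, a potassium channel, at 53.4 ± 27.8 CPM in AM6545 (SD, n = 4) and 68.9 ± 19.2 in vehicle (SD, n = 3), Car12, a carbonic anhydrase, at 55.2 ± 13.2 (SD, n = 4) and 51.6 ± 7.12 (SD, n = 3), and Slc29a4, a monoamine transporter, at 50.9 ± 9.91 (SD, n = 4) and 56.6 ± 1.42 (SD, n = 3). The smallest unadjusted p-values belonged to Wfdc2 (-0.85, SE 0.40), Ecrg4 (-0.76, SE 0.39) and Stra6 (-0.17, SE 0.12), with edgeR adjusted p-values of 0.366 to 0.505.

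Among all other genes with a mean of at least 5 CPM, those most like Ttr over the 7 libraries were Ecrg4 (r 0.995), Hcn3 (0.991), Pcolce2 (0.982), Rdh5 (0.978) and Trpv4 (0.976). Ecrg4 and Rdh5, a retinol dehydrogenase, belong to the list above, and Trpv4 is a calcium-permeable channel known from this epithelium. Hcn3, a pacemaker channel subunit, had a much smaller spread, 7.598 to 11.2 CPM in AM6545 and 10.6 to 11.7 CPM in vehicle, than Trpv4 with 2.07 to 12.4 and 8.17 to 13.5 CPM. The lowest r of the other 9 genes with Ttr was that of Otx2 (0.75), and 341 further genes (2.33%) reached it, 19 of the 25 listed choroid plexus genes among them.

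Markers of neighbouring cell types put the libraries in other orders, both by summed CPM and by mean log2(CPM + 1). Ependyma genes (ciliated lining of the ventricle, 11 of 12 tested) summed to 37.8 to 57.0 CPM in AM6545 and 38.0 to 55.6 in vehicle, with AM6545 replicate D lowest and B highest. Leptomeninges genes (13 of 13 tested) summed to 744 to 1074 CPM in AM6545 and 906 to 1144 in vehicle, with AM6545 replicate E lowest. Oligodendrocyte genes (10 of 10 tested), relevant to Enpp2, summed to 17311 to 20441 CPM in AM6545 and 16979 to 23233 in vehicle, a 1.37-fold range with vehicle replicate B lowest and AM6545 replicate F lowest of the AM6545 libraries. Endothelial genes (7 of 8 tested) had summed levels within a 1.55-fold range, and red cell genes (5 of 5) summed to 289 to 759 CPM in AM6545 and 430 to 847 in vehicle, lowest in AM6545 replicate E. The red cell sum spanned a 2.93-fold range, wider than the 2.50-fold range of the further choroid plexus list, with a median within-group SD of 0.59 (log2) against 0.57. Habenula and thalamus genes (8 of 8 tested) summed to 116 to 132 and 114 to 135 CPM. No marker of these lists was at 0 in all libraries. By edgeR 0 genes of these 6 lists passed, and 2 had an unadjusted p under 0.05, where 14.6% of all genes did. These were Cldn11 (-0.77, SE 0.17, adjusted p 0.199) and Tac2 (-0.56, SE 0.23, adjusted p 0.309), both lower in AM6545. Within the leptomeninges list, 2 of 13 genes had their lowest value in AM6545 replicate F, against 10.6% of all genes tested. These were Igfbp2 (-0.46, SE 0.21) and Igf2 (-0.58, SE 0.26), which choroid plexus makes too. They were at 51.6 and 14.5 CPM in that library, and their edgeR adjusted p-values were 0.353.

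**Figure D5:**
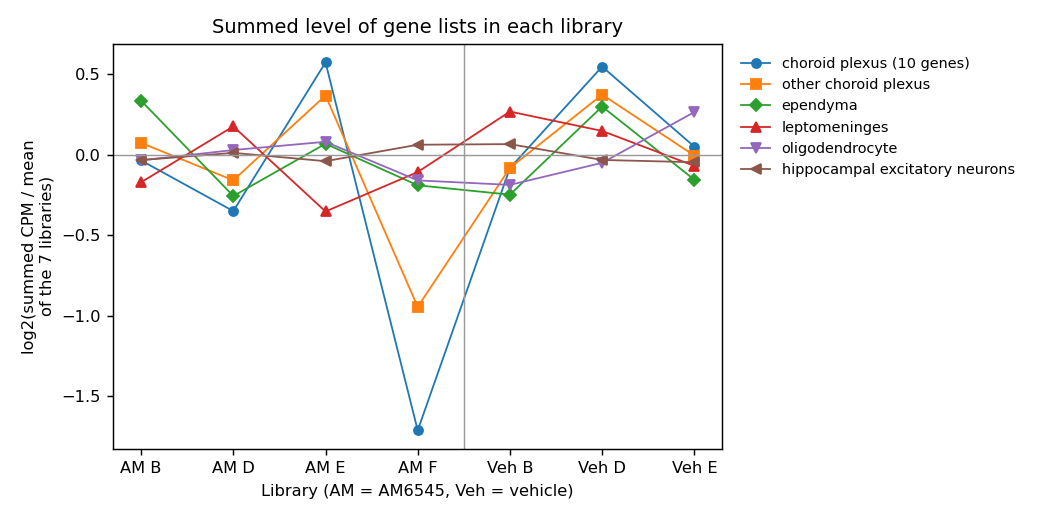
Summed CPM of 6 gene lists in each library, as log2 of the ratio to the mean of the 7 libraries (vertical axis); lines join the points of a list for reading only. The 10 choroid plexus genes span a 4.88-fold range and the further choroid plexus list a 2.50-fold range, while the hippocampal excitatory neuron list spans 1.08-fold; the red cell list (2.93-fold) is not drawn.

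Partner genes through which these proteins act were also tested. Over all genes tested by edgeR, 14.6% had an unadjusted p under 0.05. Of the 9 tested genes of ion and water transport, 0 passed by edgeR (0 unadjusted) and the median log2 fold change was -0.04. Car14, a carbonic anhydrase, was lowest in AM6545 replicate F (14.2 CPM) and highest in vehicle replicate D (36.4 CPM), as Ttr was, while Slc4a10, a bicarbonate transporter (0.30, SE 0.14, edgeR adjusted p 0.361), was lowest in vehicle replicate D and highest in AM6545 replicate E. Of the 9 tested thyroid hormone and retinoid genes, 0 passed and 2 had an unadjusted p under 0.05, the receptors Rarb (0.37, SE 0.17) and Thra (-0.34, SE 0.15; edgeR adjusted p 0.327 and 0.335). Of the 7 folate genes, 0 passed and 1 had an unadjusted p under 0.05, the folate transporter Slc46a1 (-0.30, SE 0.13, edgeR adjusted p 0.315). Of the 4 tested klotho and FGF receptor genes and the 8 of lysophosphatidic acid, 0 passed, with 0 unadjusted, and the medians were 0.17 and -0.05. Of the 7 prolactin signalling genes, 0 passed and 2 had an unadjusted p under 0.05, the kinase Jak2 (0.35, SE 0.12, edgeR adjusted p 0.248) and Prl itself (adjusted p 0.328).

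At the level of transcripts, 28 of the 62 annotated transcripts of the 10 genes were tested and 0 passed (edgeR), where 0.0177% of 33962 transcripts did, and 1 had an unadjusted p under 0.05, where 8.39% did. Ttr, Clic6 and Aqp1 were counted as 1 transcript each. Kl-201 took 98.9% to 99.8% of Kl, and Slc4a5-201 took 89.9% to 100% of Slc4a5. Enpp2-201 took 81.6% ± 1.67 of Enpp2 in AM6545 (SD, n = 4) and 84.4% ± 1.10 in vehicle (SD, n = 3). Folr1 was divided mainly among Folr1-201, Folr1-203 and Folr1-205, Otx2 among Otx2-201, Otx2-210 and Otx2-202, and Prlr between Prlr-202 (43.3% to 52.4%) and the retained-intron transcript Prlr-201 (28.7% to 47.4%). Of the 13 transcripts with a share of at least 10% that compete with another, the shares of the groups did not overlap for 3, Enpp2-201 and both of Kcne2, where this held for 8.14% of such transcripts of all genes. The shares of the 2 Kcne2 transcripts mirror each other, so they are not separate observations.

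Kcne2 was divided between transcripts that begin at the 2 start sites shown above and share the second exon (1555 bases), which holds the whole coding sequence (369 bases). Their first exons have 135 bases (Kcne2-201) and 77 bases (Kcne2-202), so the protein is the same. Kcne2-202 took 47.2%, 87.1%, 87.7% and 31.1% of Kcne2 counts in AM6545 replicates B, D, E and F, and 0%, 25.7% and 0% in vehicle replicates B, D and E. The AM6545 libraries lay above the vehicle libraries, with a wide spread in both. By edgeR the log2 fold changes were -1.83 for Kcne2-201 (SE 0.59, unadjusted p 0.0173, adjusted p 0.559) and 2.06 for Kcne2-202 (SE 1.74, adjusted p 0.792). The division is an estimate that rests on reads in the short first exons. Exon lengths and starts are those of GENCODE release M21, in which both transcripts carry a lower version number than in the deposited table.

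Other annotated genes touch 4 of the 10, which leaves their counts less certain. An exon of Gm26684 lies on the opposite strand of Enpp2, exons of Otx2os1 (opposite strand) and Gm49154 (same strand) overlap Otx2, and Gm21973 overlaps Prlr on the same strand. Folr1 shares 221 bases at about 95% identity with Gm18334. Gm21973 was listed at 0 in the 7 libraries, and the other 4 were not among the 22248 genes with values.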

How the data were processed

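Messenger RNA of hippocampal synaptoneurosomes was measured in 7 libraries, 4 after AM6545 and 3 after vehicle. Per the labels' protocols, total RNA came from an RNeasy mini kit, and SMARTer Ultra Low Input was the library kit. The values deposited by the authors are estimated counts, not scaled to a common total, for 22248 genes and 102392 transcripts, of which 83.5% of gene values above 0 are not whole. Per the submitters' processing notes, Salmon 1.5.2 and mm10 were used; the annotation release and the strand setting are not given in the sources used here. Symbols, transcript lengths and GC content came from GENCODE release M21, matched without version numbers (22148 gene and 101527 transcript identifiers). Of these, 22135 and 101514 carry a higher version number in the deposited tables, so that counting may have used a newer annotation, and TPM, transcript lengths and start sites given here may differ from it.

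Rounded counts were compared with edgeR 4.0.16 (quasi-likelihood, TMM, filterByExpr, robust, no covariate; limma 3.58.1, R 4.3.3), with Benjamini-Hochberg adjustment over all genes and a threshold of 0.05. SE is the absolute log2 fold change over the root of F. Log values use log2(CPM + 1). TPM used annotated, not effective, lengths. Alternatives were other scalings, DESeq2 1.42.0, limma-voom, other filters, the replicate letter as a block, a lowess correction (span 0.3) for GC content and length, and leaving out each library. Code was tested on simulated data. The genes, lists and tests were chosen with earlier results of these data known. Named genes were the 10 genes, 3 per list by smallest p (and, for the further choroid plexus list, 3 by level), and 5 by likeness to Ttr. One gene that this rule names is not reported here.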

Additional observations from a re-analysis of the deposited data

Results flagged for a closer look

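A single AM6545 library stood far apart from its group in 2 of the 51 values examined this way. Chance would give 2.55 if the values were independent and free to vary. They depend on each other, and the transcript shares of Ttr, Clic6 and Aqp1 among them were 100% in each library. The 2.55 is therefore only a rough guide. Folr1-205 took 4.87% of Folr1 counts in AM6545 replicate F, against 15.8% to 16.3% in the other AM6545 libraries. That share was only 8.11 estimated counts, against 97.7 to 140 in the others, and the division among Folr1 transcripts is itself an estimate. The level of Aqp1 relative to the other 9 genes was 0.34 (log2) in AM6545 replicate B, against -0.12 to -0.08 in the other AM6545 libraries. The vehicle group of 3 was not compared in this way.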

How the results depend on the processing

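For the 10 genes, 0 passed in each of the 19 alternatives, with adjusted p-values from 0.245 upward, while 0% to 6.38% of all genes did. The 10 fold changes kept their sign under each other scaling, tool and filter. Over fits that left out 1 library, the log2 fold change ranged from -0.39 to 0.20 for Kl, -0.45 to 0.19 for Clic6, -0.66 to 0.13 for Kcne2, -0.49 to 0.062 for Aqp1, -0.40 to 0.35 for Otx2, -0.50 to 0.21 for Enpp2 and -0.66 to 0.18 for Slc4a5, with the lowest value of each without AM6545 replicate E. Ttr (-1.03 to -0.46), Folr1 (-0.95 to -0.31) and Prlr (-0.70 to -0.19) kept their sign, the smallest sizes being without AM6545 replicate F. With the replicate letter as a block, 6 changed sign, Kl to 0.18, Clic6 to 0.20, Aqp1 to 0.038, Otx2 to 0.22, Enpp2 to 0.18 and Slc4a5 to 0.025, and with block and GC correction together 5, Kl to 0.13, Clic6 to 0.13, Aqp1 to 0.043, Otx2 to 0.16 and Slc4a5 to 0.021. In the block fit AM6545 replicate F carries no weight by construction, as no vehicle library has that letter. Same-letter libraries did not deviate together (r of -0.24, -0.12 and -0.16), so the letters were not taken as pairs.

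Over all genes the count past the threshold was 1, and 205 with DESeq2, 394 with limma-voom, 2 with a mean of at least 50 counts, 2 without robust estimation, 0 after the GC correction and 0 to 944 without 1 library (944 without vehicle replicate E); the cause was not tested. For transcripts it was 6, and 431 with DESeq2, 0 with the block and 1 to 14 without 1 library. The median r of the 45 pairs was 0.72 to 0.95 without 1 library, lowest without AM6545 replicate F. The number of libraries limits what can be seen for genes that vary this much.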

Other observations

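Prl, the pituitary hormone that Prlr binds, was at 0.13, 2.21, 0.89 and 16.7 CPM in AM6545 replicates B, D, E and F, and at 0, 0.16 and 0.05 CPM in vehicle replicates B, D and E. Gh, growth hormone, which the pituitary also makes and which was looked at only after the values of Prl were seen, was at 0.22, 2.02, 0.80 and 14.7 CPM in the same AM6545 libraries and at 0, 0 and 0.16 CPM in vehicle. Both were highest in AM6545 replicate F, the library with the lowest level of each of the 10 choroid plexus genes. Neither passed (edgeR, adjusted p 0.328 and 0.316).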
